A study of Mus musculus with 15 samples.

Results

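The genes described here encode the route of glucose through the retina, from entry through glycolysis and the pyruvate dehydrogenase complex to the tricarboxylic acid (TCA) cycle, with the creatine kinases that buffer ATP. They were chosen by name from a list of 50 symbols, 2 of which (Pkm and Pkm2) are names of 1 gene, so that the list holds 49 genes. Of these, 45 had a probe on the array, with 63 probes in all among 25697. A probe was kept when its detection p was under 0.01 on at least 5 arrays, which left 54 probes of 41 member genes among 13077 kept probes. Gpi1, Eno1, Ldhb and G6pdx had no probe under their symbol, and the probes of Pfkfb3, Slc16a1, Slc16a3 and Slc16a7 did not pass the detection filter.

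Expression was measured on 15 Illumina beadchips, each with total RNA from both retinas of 1 mouse at postnatal day 30, on a C57bl/6 background. All animals lacked Nrl, a transcription factor without which rods do not form, so that their retinas hold cone-like photoreceptors in their place. The control group was Nrl-/- (n = 5). The other groups were CNGA3-/-/Nrl-/- (n = 5) and CNGB3-/-/Nrl-/- (n = 5), which also lacked a subunit of the cone cyclic nucleotide-gated channel and are named here the Cnga3 double knockout and the Cngb3 double knockout. No wild-type retina is among the groups analysed here, and in whole retinas fewer cells of a type and less RNA per cell cannot be told apart.

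Photoreceptors are known as the most glucose-hungry cells of the retina and convert most of the glucose they take up to lactate even when oxygen is present. Glucose enters through facilitative transporters, hexokinase traps it as glucose 6-phosphate, and phosphofructokinase commits it to glycolysis. Pyruvate then leaves as lactate or enters mitochondria, where the pyruvate dehydrogenase complex feeds the TCA cycle. Hk1 is the hexokinase of most neurons, whereas Hk2 is an inducible isoform that in the retina is known mainly from photoreceptors.

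Values are background-corrected, quantile-normalized log2 intensities, so that 1 unit is a 2-fold difference, and array values are listed in the order of the replicate numbers 1 to 5. A change was called where limma's moderated test gave an adjusted p under 0.05, with Benjamini-Hochberg adjustment over all 13077 kept probes. Median intensity per array lay between 136.8 and 171, with 10302 to 13763 probes detected. All 10 cone markers were kept, with a summed log2 level of 16.54 to 16.79 in the control, 16.23 to 16.57 in the Cnga3 and 16.35 to 16.55 in the Cngb3 double knockout. The Nrl probe was detected on 0 arrays, Cngb3 read 6.95 ± 0.21 in the Cngb3 double knockout against 9.03 ± 1.10 in the control (SD, n = 5), and the brighter Cnga3 probe read 8.30 ± 0.358 in the Cnga3 double knockout against 8.58 ± 0.431. The labels do not say where the Cnga3 probes lie relative to the deletion, so they do not check it. Control replicates 1 and 3 stood apart from the other arrays in the lens gene Cryaa, at 4.28 and 6.60 against at least 12.42 elsewhere, and where leaving out these 2 arrays changed a call on a gene described here, the value without them is given.

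The promoters of the hexokinase genes are shown first because Hk1 and Hk2 moved in opposite directions. The sequences come from RefSeq on GRCm38.p6 and run from 250 bases before to 50 after an annotated start. Hk1 has 2 such windows on the minus strand, at chr10:62379859-62380158 for the upstream start and chr10:62340372-62340671 for the downstream one, and Hk2 has 1, at chr6:82774405-82774704, also on the minus strand. Capitals mark ACGTG or GCGTG on either strand, the core letters of the hypoxia response element.
Hk1 upstream start: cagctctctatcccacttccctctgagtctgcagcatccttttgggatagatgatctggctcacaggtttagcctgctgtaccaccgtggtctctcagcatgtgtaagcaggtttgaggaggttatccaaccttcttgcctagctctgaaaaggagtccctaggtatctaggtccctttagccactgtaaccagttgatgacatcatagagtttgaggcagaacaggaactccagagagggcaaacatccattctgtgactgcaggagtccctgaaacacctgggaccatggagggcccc
Hk1 downstream start: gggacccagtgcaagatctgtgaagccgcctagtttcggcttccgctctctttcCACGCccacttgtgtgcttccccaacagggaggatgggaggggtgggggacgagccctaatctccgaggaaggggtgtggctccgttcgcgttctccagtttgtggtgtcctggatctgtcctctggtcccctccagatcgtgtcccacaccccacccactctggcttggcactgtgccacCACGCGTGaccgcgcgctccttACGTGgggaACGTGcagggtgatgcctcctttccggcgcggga
Hk2: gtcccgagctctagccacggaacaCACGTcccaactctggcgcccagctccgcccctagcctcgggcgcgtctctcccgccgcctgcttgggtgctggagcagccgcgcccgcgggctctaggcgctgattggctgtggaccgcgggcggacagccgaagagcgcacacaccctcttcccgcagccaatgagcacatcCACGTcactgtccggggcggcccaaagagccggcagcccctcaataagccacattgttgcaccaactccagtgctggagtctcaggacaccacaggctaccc

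The upstream Hk1 window held 0 cores, the downstream Hk1 window held 5 and the Hk2 window held 2. In the downstream Hk1 window 3 cores are GCGTG, at positions -196, -15 and -12, counted with the start itself as position 1, and the last 2 of them overlap on opposite strands, whereas 2 are ACGTG, at positions 8 and 17. Both Hk2 cores are ACGTG on the opposite strand, at positions -226 and -52. Of 32851 RefSeq windows of the same length, 43.77% held either core, 19.62% ACGTG and 32.39% GCGTG, so that a match is common. CCAAT, present in 37.41% of the windows, occurred 2 times in the Hk2 window, and GGGCGG, present in 35.66%, occurred 3 times. Neither Hk1 window held CCAAT or GGGCGG, and TAATCC, the letters of a Crx-type homeodomain site found in 7.062% of windows, was in none of the 3. These matches describe the letters and not the binding of a factor.

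Hk1 and Hk2 moved in opposite directions in the Cnga3 double knockout. On the 5 control arrays Hk2 read 13.40, 13.51, 13.37, 13.32 and 13.05, and on the Cnga3 double knockout arrays 12.65, 12.52, 12.53, 11.44 and 12.75. The groups did not overlap, and replicate 4 of the double knockout lay far below the others of its group. Hk2 fell by 0.95 on the log2 scale (SE 0.196, 1.93-fold, adjusted p = 0.00933, limma), from 13.33 ± 0.17 to 12.38 ± 0.534 (SD, n = 5).

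Hk1 read 9.59, 8.82, 9.88, 8.99 and 9.70 on the control arrays, against 10.15, 10.37, 10.44, 9.86 and 10.14 on those of the Cnga3 double knockout. All but replicate 4 of the double knockout lay above every control, and control replicate 3 exceeded that array slightly. Hk1 rose by 0.79 (SE 0.188, 1.73-fold, adjusted p = 0.0181, limma), from 9.40 ± 0.463 to 10.19 ± 0.229 (SD, n = 5).

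In the Cngb3 double knockout both hexokinases lay between the other groups by their means, and neither change passed the test. Hk2 read 12.996, 12.91, 13.04, 13.07 and 13.10, a difference of -0.31 from the control (SE 0.196, 95% interval -0.72 to 0.11, adjusted p = 0.392). Hk1 read 9.59, 9.68, 9.95, 9.65 and 9.73, a difference of 0.32 (SE 0.188, 95% interval -0.07 to 0.72, adjusted p = 0.344). The Cnga3 minus Cngb3 difference was -0.64 for Hk2 (adjusted p = 0.15) and 0.47 for Hk1 (adjusted p = 0.264), neither of which passed over all probes. With array weights both passed, at -0.47 for Hk2 (adjusted p = 0.0144) and 0.57 for Hk1 (adjusted p = 0.0199), and with a pigment epithelium covariate Hk2 passed at -1.14 (adjusted p = 0.00743) and Hk1 did not (0.29, adjusted p = 0.503). These fits called 8.95% and 8.27% of all kept probes between the double knockouts, against 0.405% without weights or covariate.

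**Figure D1:**
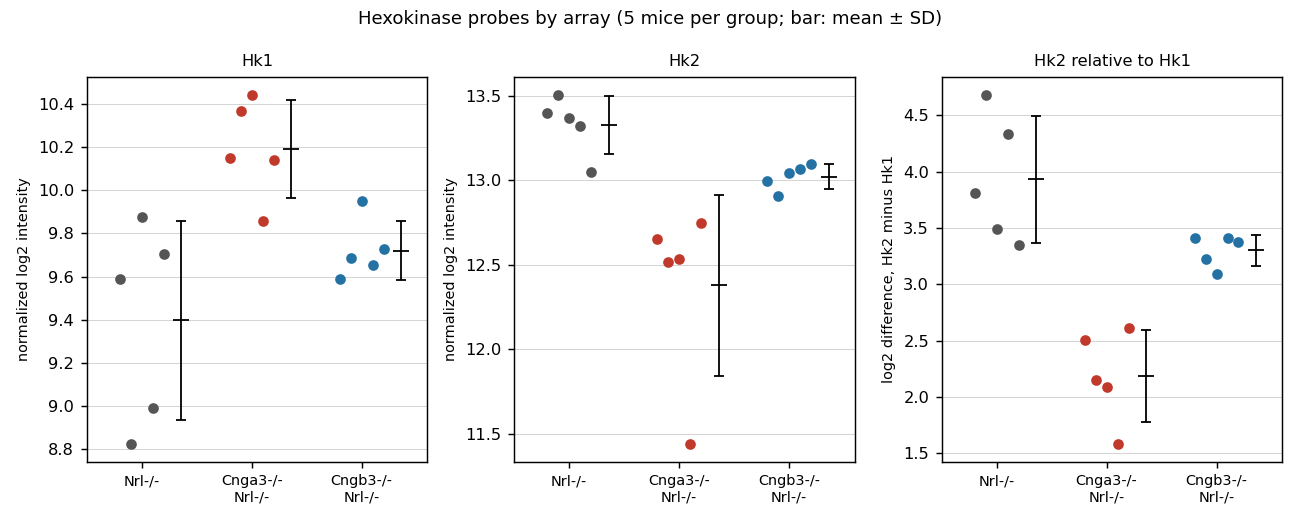
Normalized log2 intensity of Hk1 and of Hk2, and the log2 difference Hk2 minus Hk1, on each array (points, in replicate order) of the 3 groups, with the mean ± SD of 5 mice as bars. Hk2 of the Cnga3 double knockout, at 11.44 to 12.75, lies below every control, and the Hk2 minus Hk1 difference of this group lies below that of both other groups.

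The difference Hk2 minus Hk1 on each array puts both isoforms in 1 value that is free of the array's scale, although its size also depends on how brightly each probe reads. Its mean was 3.93 ± 0.566 in the control, 2.19 ± 0.406 in the Cnga3 and 3.30 ± 0.139 in the Cngb3 double knockout (SD, n = 5). The Cnga3 double knockout lay 1.75 below the control (difference -1.75, two-sided exact permutation p = 0.00794, the smallest that 5 against 5 arrays can give, adjusted p = 0.0119 over the 3 comparisons) and the groups did not overlap. It also lay below the Cngb3 double knockout, with a difference of -1.11 and no overlap (exact permutation p = 0.00794, adjusted p = 0.0119). The Cngb3 double knockout differed from the control by -0.63 with overlapping values (exact permutation p = 0.0317, adjusted p = 0.0317), and this call ended without control replicates 1 and 3 (-0.82, exact permutation adjusted p = 0.0714) or without any 1 of the Cngb3 double knockout arrays (adjusted p of up to 0.0794).

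Retinal pigment epithelium markers, 9 of 12 kept (Lrat, Tyr and Best1 were not), also differed in the Cnga3 double knockout, with 0 called higher and 2 lower. The list median was -1.13 there and 0.16 in the Cngb3 double knockout, where 0 of these markers were called. Between the double knockouts 0 of them were called higher and 3 lower, where 0.184% and 0.222% of all kept probes were called. Their summed log2 level was 12.31 to 13.19 on 4 Cnga3 double knockout arrays and 14.62 on replicate 4, against 13.61 to 14.46 in the control and 13.91 to 14.72 in the Cngb3 double knockout. In the Cnga3 double knockout the array with the highest pigment epithelium level was the one with the lowest Hk2. Of the 10 cone markers, 0 were called higher and 1 lower in that group, Arr3 at -2.18 (adjusted p = 5.26e-07, list median -0.06). In the Cngb3 double knockout 0 were called higher and 2 lower, with Arr3 at -1.84 (adjusted p = 5.67e-06, list median -0.17). Of 5 kept rod markers, Pde6b was called lower in both, at -2.81 in the Cnga3 and -1.55 in the Cngb3 double knockout. Gnat1 was called higher in the Cnga3 double knockout, at 0.67. Among all kept probes, 1.44% were called higher and 1.25% lower in the Cngb3, and 4.61% and 3.43% in the Cnga3 double knockout. Of 7 kept Mueller glia markers, Aqp4 and Car2 were called higher there, by 0.70 and 0.52 (adjusted p = 0.0465 and 0.0318, list median 0.39), and Aqp4 also in the Cngb3 double knockout, by 0.98 (adjusted p = 0.0186, list median 0.25). The list's summed log2 level overlapped between the groups, at 14.40 to 14.64 in the control, 14.27 to 14.68 in the Cnga3 and 14.60 to 14.74 in the Cngb3 double knockout. Of 6 kept bipolar cell markers, Cabp5 was called 0.77 higher in the Cnga3 double knockout (adjusted p = 0.0217, list median 0.05). The part of these cell types in the hexokinase values was not tested. The mean level of the 9 kept pigment epithelium markers alone was also used as a covariate. The Cnga3 minus control difference was then -1.42 for Hk2 (adjusted p = 0.00071) and 0.62 for Hk1 (adjusted p = 0.0939), so that the Hk1 call ended. That fit called 15.7% of all kept probes in this comparison, against 8.04% without the covariate. The covariate was 7.81 to 8.83 on 4 Cnga3 double knockout arrays and 10.22 on replicate 4. It was 9.55 to 10.20 in the control and 9.40 to 10.26 in the Cngb3 double knockout. In every fit that uses it, the covariate thus differs with genotype and sets replicate 4 apart within its group. How far these fits rest on replicate 4 was not tested. With no covariate and without replicate 4 the differences were -0.72 for Hk2 (adjusted p = 0.00255) and 0.88 for Hk1 (adjusted p = 0.0132), and without control replicates 1 and 3 they were -0.92 (adjusted p = 0.024) and 1.02 (adjusted p = 0.0043).

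Glucose enters retinal cells through Slc2a1 (GLUT1) and the neuronal transporter Slc2a3 (GLUT3), and Bsg (basigin) carries lactate transporters to the membrane. Slc2a1 read 11.99, 11.73, 11.42, 11.57 and 11.06 in the control, against 12.16, 12.20, 12.23, 12.39 and 11.90 in the Cngb3 double knockout. Only Cngb3 double knockout replicate 5 fell within the control range. Slc2a1 rose by 0.62 in that group (SE 0.159, 1.53-fold, adjusted p = 0.0477, limma). In the Cnga3 double knockout it read 11.94, 11.89, 11.73, 12.12 and 12.16, a difference of 0.41 that did not pass (adjusted p = 0.113). The double knockouts differed by -0.20 (95% interval -0.54 to 0.13, adjusted p = 0.586). The Slc2a1 call in the Cngb3 double knockout did not survive 8 of the 10 fits that left out an array, namely those without control replicates 2, 3, 4 or 5 or Cngb3 double knockout replicates 1, 2, 3 or 4 (adjusted p of up to 0.132). Of 8 vascular markers 6 were kept (Cdh5 and Cldn5 were not), and the list did not move as a whole, with a median difference of -0.10 in the Cnga3 and -0.03 in the Cngb3 double knockout. Flt1 alone was called, 0.69 and 0.63 higher (adjusted p = 0.0134 and 0.0372), where 4.61% and 1.44% of all kept probes were called higher. Flt1 sets most of the summed log2 level, which was 9.90 to 10.56 in the control, 10.52 to 11.01 in the Cnga3 and 10.62 to 10.85 in the Cngb3 double knockout. Tek differed by -0.57 and -0.20, and the part of any vascular change in the Slc2a1 values was not tested. Slc2a1 passed in the Cnga3 double knockout with the pigment epithelium covariate (0.62, adjusted p = 0.0463) and without control replicate 1 (0.52, adjusted p = 0.0435).

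Bsg had 2 kept probes, and neither was called. The brighter one read 10.79, 9.96, 11.14, 9.63 and 10.93 in the control, 11.08, 11.16, 11.49, 11.30 and 10.99 in the Cnga3 and 10.95, 11.01, 11.06, 10.93 and 10.79 in the Cngb3 double knockout. Control replicates 2 and 4 were low, whereas the other 3 controls lay within or near the ranges of the double knockouts. The differences from the control were 0.72 and 0.59 for the 2 probes in the Cnga3 double knockout (adjusted p = 0.0658 and 0.131) and 0.46 and 0.48 in the Cngb3 double knockout (adjusted p = 0.28 and 0.273). Without control replicates 1 and 3 the Cnga3 differences were 1.03 and 0.93 and passed (adjusted p = 0.0101 and 0.0196), as they did without control replicate 3 alone (0.88 and 0.76, adjusted p = 0.0247 and 0.0487). In the Cngb3 double knockout the dimmer probe also passed without both arrays (0.81, adjusted p = 0.0467). With array weights both probes passed in the Cnga3 (0.95 and 0.81, adjusted p = 0.00634 and 0.0171) and in the Cngb3 double knockout (0.69 and 0.70, adjusted p = 0.0389 and 0.0417). The weighted fit called 14.4% and 8.06% of all kept probes in these comparisons, against 8.04% and 2.68% without weights. Slc2a3 lay between 9.54 and 10.51 on all arrays and was not called. The monocarboxylate transporter genes Slc16a1, Slc16a3 and Slc16a7 were not kept.

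Phosphofructokinase is encoded by Pfkl, Pfkm and Pfkp, and the 2 latter genes were called on a dim probe that the brighter probes of the same gene did not follow. The dimmest of 3 kept Pfkm probes read 7.26, 6.60, 7.40, 6.26 and 7.30 in the control, against 7.83, 7.69, 8.04, 7.28 and 7.86 after loss of Cnga3, a rise of 0.78 (SE 0.213, 1.72-fold, adjusted p = 0.0339, limma). Replicate 4 of the double knockout lay among the controls and the other 4 arrays above them. The other 2 Pfkm probes differed by -0.33 and -0.27 in the same comparison (adjusted p = 0.247 and 0.269). With the pigment epithelium covariate the brightest Pfkm probe was lower by more, at -0.79, and passed (adjusted p = 0.00555), opposite to the dim probe. The brightest probe read 10.81 on Cnga3 double knockout replicate 4, against 11.34 to 11.93 on the rest of that group.

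The dimmer of 2 kept Pfkp probes read 6.61, 6.09, 5.46, 5.87 and 6.24 in the control, against 7.04, 6.78, 6.92, 6.32 and 7.03 after loss of Cnga3, a rise of 0.76 (SE 0.205, 1.70-fold, adjusted p = 0.0318, limma). Again replicate 4 alone of its group fell within the control range. The brighter Pfkp probe differed by 0.02 (95% interval -0.38 to 0.41, adjusted p = 0.955). In the Cngb3 double knockout the dim probes differed by 0.46 for Pfkm and 0.48 for Pfkp (adjusted p = 0.234 and 0.201).

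Both calls ended when any of several single arrays was left out, although the differences stayed at 0.60 to 0.90 for Pfkm and 0.62 to 0.90 for Pfkp. That of Pfkm ended without control replicates 2 or 4 or Cnga3 double knockout replicates 1, 2, 3 or 5 (adjusted p of up to 0.0871), and that of Pfkp without control replicates 2, 3 or 4 or the same 4 double knockout replicates (up to 0.0805). Both also ended with the pigment epithelium covariate (adjusted p = 0.189 and 0.127). Pfkl, at 11.95 to 12.46 on all arrays, and Pfkfb2, whose enzyme sets the activator of phosphofructokinase, at 9.22 to 10.26, were not called. Aldoa, the aldolase of most tissues, had the largest fall among the uncalled upper glycolysis probes, with -0.49 in the Cnga3 double knockout (SE 0.171, adjusted p = 0.0855) and -0.03 in the Cngb3 double knockout (adjusted p = 0.935). With the pigment epithelium covariate the Cnga3 difference of Aldoa was -0.74 and passed (adjusted p = 0.0273).

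**Figure D2:**
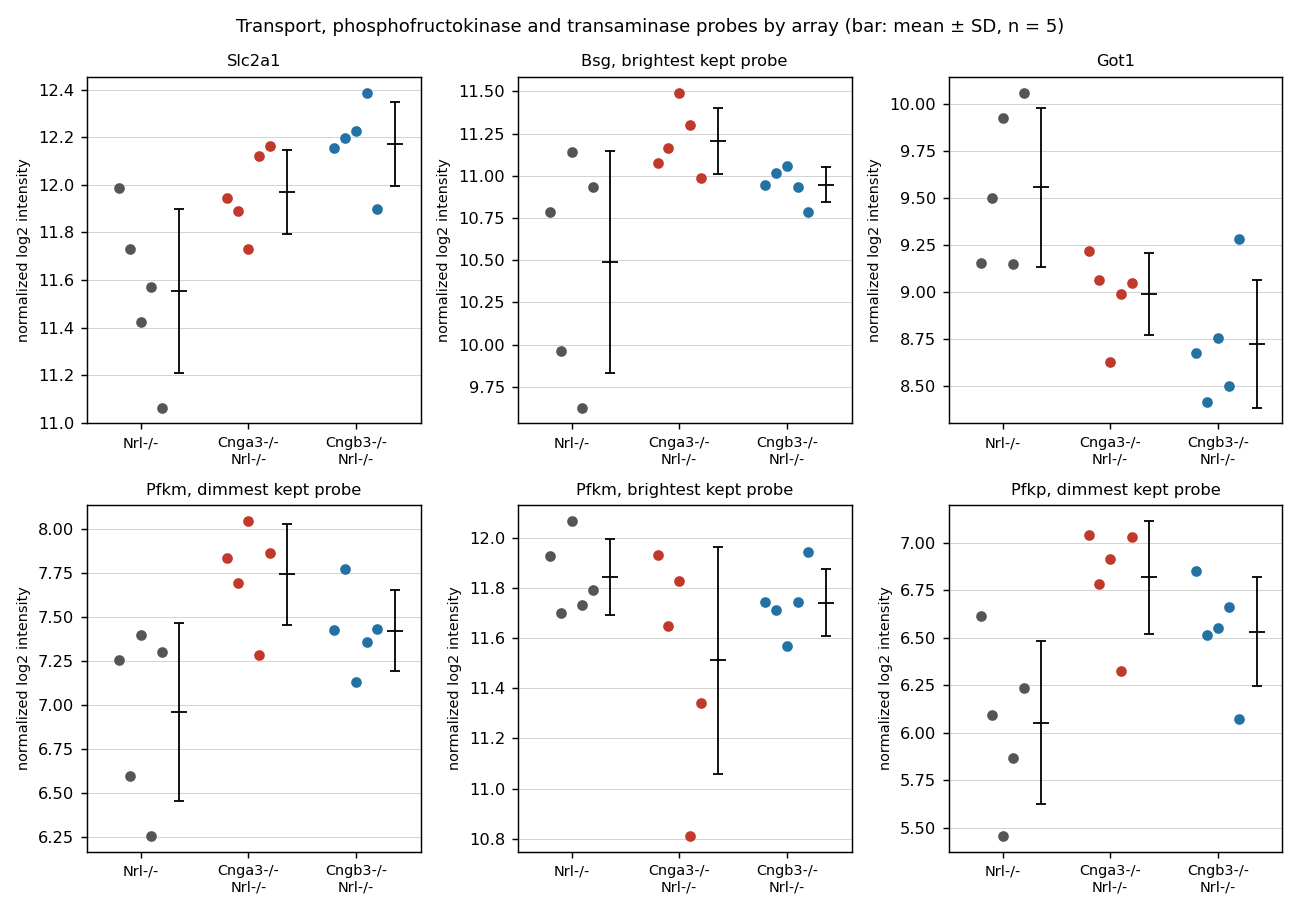
Normalized log2 intensity on each array (points, in replicate order) for Slc2a1, Bsg, Got1, the dimmest and brightest Pfkm probe and the dimmer Pfkp probe, with the mean ± SD of 5 mice as bars. By their means Slc2a1 is highest and Got1 lowest in the Cngb3 double knockout, and the dim Pfkm probe is higher in the Cnga3 double knockout while the brightest Pfkm probe is not.

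Lower glycolysis, which turns triose phosphates into pyruvate and lactate, had 10 kept probes of 7 genes (Tpi1, Gapdh, Pgk1, Pgam1, Eno2, Pkm and Ldha), and limma called 0 in any comparison, with an unadjusted p under 0.05 for 1, 2 and 3 in the Cnga3, the Cngb3 and the Cnga3 minus Cngb3 comparison. Over all kept probes 8.04%, 2.68% and 0.405% were called in these comparisons, and 25.8%, 20.4% and 14.5% had such an unadjusted p. The differences of the lower glycolysis probes from the control ran from -0.21 (Pkm, pyruvate kinase) to 0.54 (Pgk1, phosphoglycerate kinase) in the Cnga3 and from -0.29 (Gapdh) to 0.21 (1 Tpi1 probe) in the Cngb3 double knockout. Pgk1 read 6.31 to 6.83 in the Cnga3 double knockout against 5.65 to 6.21 in the control, without overlap (adjusted p = 0.0966). In the Cngb3 double knockout the brightest Tpi1 and Gapdh probes and Eno2, the neuronal enolase, did not overlap the control. Gapdh read 14.22 to 14.46 there against 14.51 to 14.75 in the control, a difference of -0.29 (adjusted p = 0.153). Eno2 read 13.20 to 13.34 against 13.39 to 13.71, a difference of -0.24 (adjusted p = 0.299). Ldha, the lactate dehydrogenase subunit of aerobic glycolysis, lay between 12.57 and 12.95 on all 15 arrays, with differences of -0.09 (95% interval -0.32 to 0.14) and 0.09 (-0.14 to 0.32). Eno1b, a gene outside the list for which RefSeq gives Eno1 as a former symbol, differed by -0.57 in the Cnga3 double knockout (adjusted p = 0.0349, and up to 0.0841 without control replicates 3 or 5 or Cnga3 double knockout replicates 1 or 2, and 0.0615 without control replicates 1 and 3 together) and by -0.34 in the Cngb3 double knockout (adjusted p = 0.225).

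The pyruvate dehydrogenase complex is built from Pdha1, Pdhb, Dlat and Dld and is switched off by the kinases Pdk1, Pdk2 and Pdk3. Of the 8 kept probes of these 7 genes limma called 0, with an unadjusted p under 0.05 for 1 in the Cnga3 and 2 in the Cngb3 double knockout. Among all kept probes 8.04% and 2.68% were called, and 25.8% and 20.4% had such an unadjusted p. Pdk3 had the lowest p of the group in both double knockouts. It read 7.17 to 7.85 in the control, 7.79 to 8.21 in the Cnga3 and 7.73 to 8.05 in the Cngb3 double knockout, with differences of 0.40 (adjusted p = 0.0738) and 0.37 (adjusted p = 0.138). Pdha1 read 10.10 to 10.31 in the control and 10.39 to 10.73 in the Cngb3 double knockout without overlap (difference 0.38, adjusted p = 0.191). Dld had the largest difference, 0.63 in the Cnga3 double knockout (adjusted p = 0.218), with controls spread from 7.84 to 10.28. Control replicate 4 decided this value, since without it the difference was 0.96 and passed (adjusted p = 0.0271).

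The TCA cycle was covered by 14 kept probes of 11 genes, and limma called 0 in either double knockout, with an unadjusted p under 0.05 for 4 in the Cnga3 and 2 in the Cngb3 double knockout. These genes were citrate synthase (Cs), the isocitrate dehydrogenases (Idh2, Idh3a, Idh3b and Idh3g), the 2-oxoglutarate dehydrogenase subunits Ogdh and Dlst, succinyl-CoA ligase (Suclg1 and Sucla2), fumarase (Fh1) and mitochondrial malate dehydrogenase (Mdh2). The background over all kept probes was 8.04% and 2.68% called, and 25.8% and 20.4% with an unadjusted p under 0.05. Differences from the control ran from -0.31 (Idh3g) to 0.42 (1 Suclg1 probe) in the Cnga3 and from -0.32 (Sucla2) to 0.39 (Fh1) in the Cngb3 double knockout. The brightest Idh3g probe read 12.18 to 12.36 in the control, 11.60 to 12.11 in the Cnga3 and 12.05 to 12.17 in the Cngb3 double knockout, so that neither double knockout overlapped the control (adjusted p = 0.0933 and 0.58). The brightest Suclg1 probe read 12.72 to 12.79 in the control against 12.41 to 12.65 and 12.59 to 12.71, also without overlap (adjusted p = 0.15 and 0.563). Some of these did pass in the Cnga3 double knockout under other settings, namely both probes in the authors' deposited table when refitted (-0.30 and -0.23, adjusted p = 0.0301 and 0.0327), and Idh3g (-0.50, adjusted p = 0.0159) and Idh3a (-0.49, adjusted p = 0.0328) with the pigment epithelium covariate. Fh1 read 9.06 to 9.21 in the Cngb3 double knockout and 8.38 to 9.01 in the control (adjusted p = 0.102, and 0.0492 without control replicate 1). Idh2 differed by 0.28 there and passed without control replicate 4 (0.48, adjusted p = 0.0475). Of the 3 Suclg1 probes, the dimmest spread from 6.89 to 9.70 within the Cnga3 double knockout and bounds a change only loosely. Cs lay between 9.65 and 10.34 on all arrays, with 95% intervals of -0.22 to 0.35 and -0.23 to 0.35 for its differences from the control.

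Among the side reactions, Got1, the cytosolic aspartate transaminase of the malate-aspartate shuttle, was called in the Cngb3 double knockout. It read 9.15, 9.50, 9.92, 9.15 and 10.06 in the control, against 8.67, 8.41, 8.75, 8.50 and 9.28 in the Cngb3 double knockout. All but replicate 5 of the double knockout lay below every control. Got1 fell by 0.83 on the log2 scale (SE 0.202, 1.78-fold, adjusted p = 0.036, limma). In the Cnga3 double knockout it read 9.21, 9.06, 8.63, 8.99 and 9.05, a difference of -0.57 that did not pass (adjusted p = 0.0882). The double knockouts differed by 0.27 (95% interval -0.16 to 0.69, adjusted p = 0.573). The Cngb3 call ended without control replicates 2, 3 or 5 or Cngb3 double knockout replicates 1, 2, 3 or 4 (adjusted p of up to 0.1). With the pigment epithelium covariate the Cnga3 difference was -0.80 and passed (adjusted p = 0.0465). Got2, the mitochondrial transaminase, lay between 12.54 and 13.02 on all arrays and was not called, nor were Pcx (pyruvate carboxylase) and the 3 probes of Mdh1 (cytosolic malate dehydrogenase), of which 1 had the widest difference of the group, 0.88 in the Cnga3 double knockout (SE 0.411, adjusted p = 0.187). The brightest Mdh1 probe differed by 0.44 there, and by 0.86 with the pigment epithelium covariate, which passed (adjusted p = 0.0275). Neither creatine kinase was called. Ckb, the brain isoform, read 14.72 to 15.12 on all arrays. Ckmt1, the mitochondrial isoform, read 12.04 to 12.10 in the Cngb3 double knockout against 12.15 to 12.57 in the control without overlap (difference -0.27, adjusted p = 0.257).

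**Figure D3:**
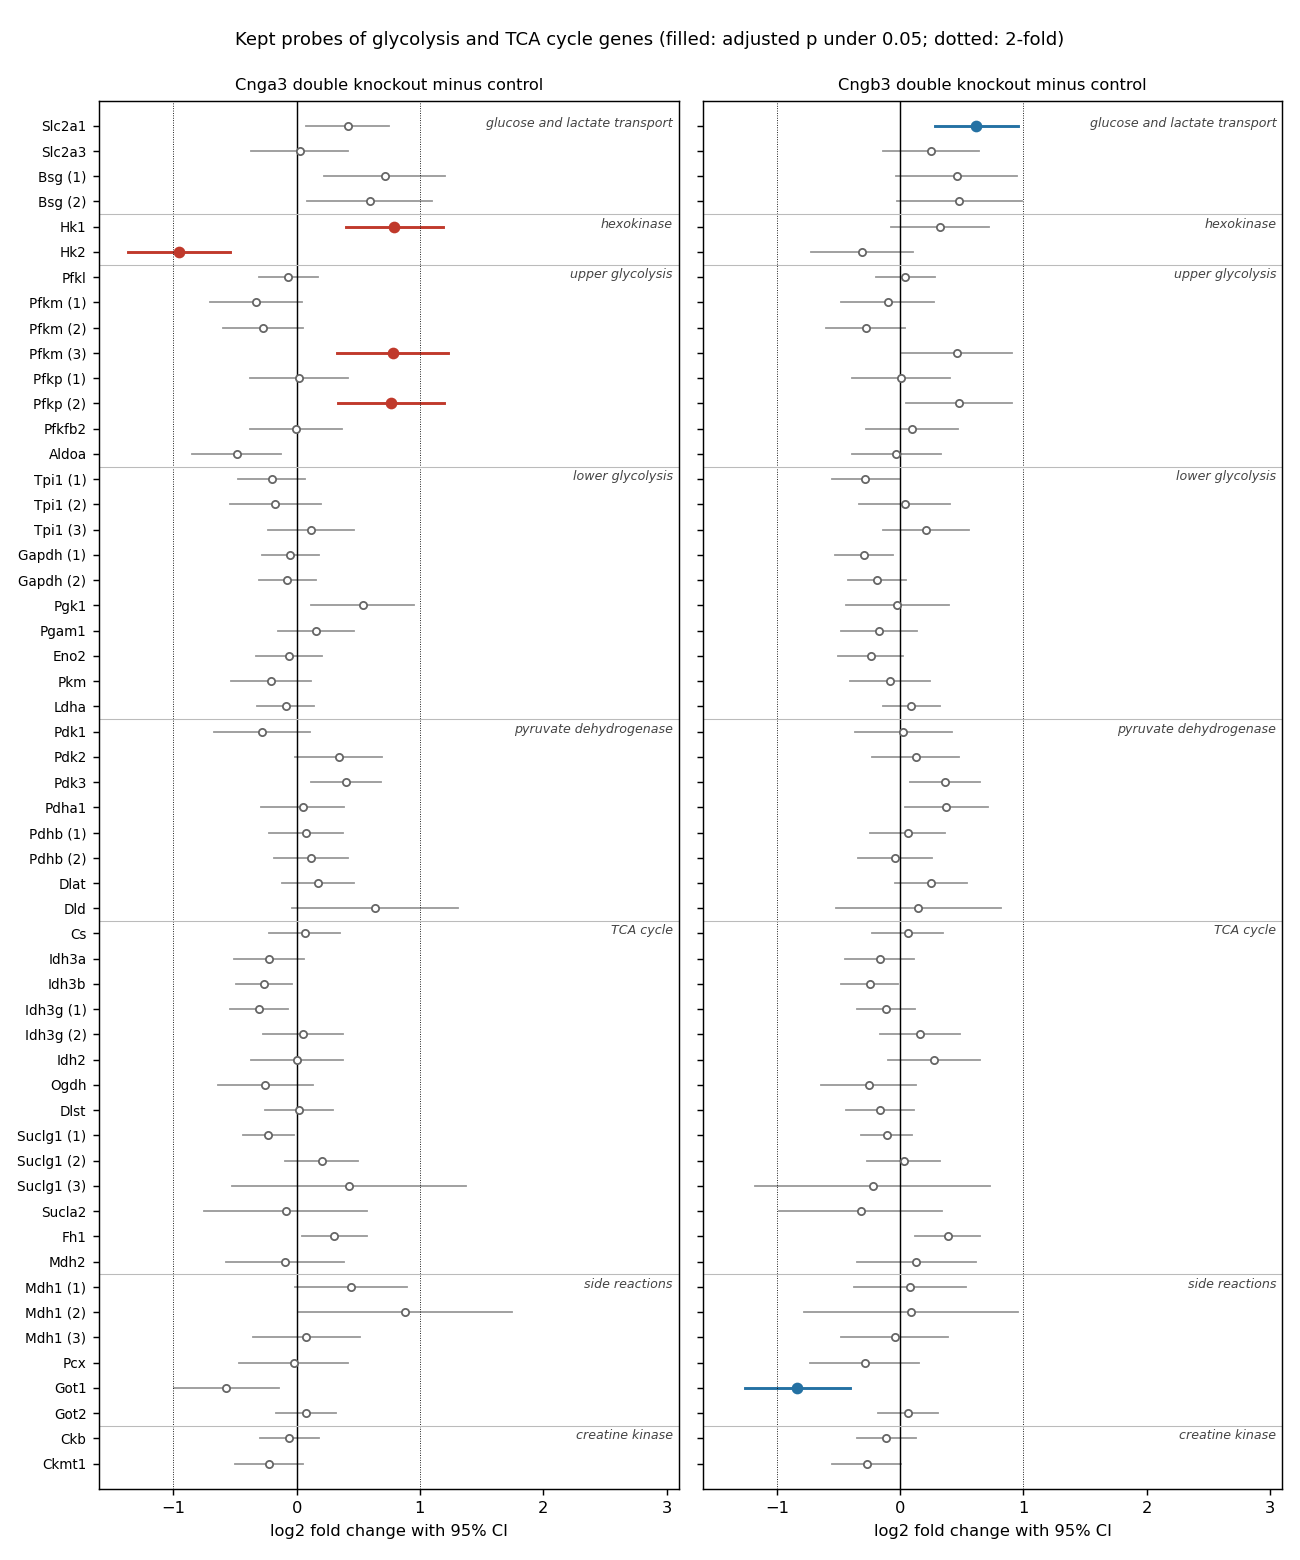
Log2 fold change with its 95% confidence interval for each of the 54 kept probes in the Cnga3 (left) and the Cngb3 double knockout (right) against the control, grouped by role, where filled points passed the adjusted threshold and dotted lines mark a 2-fold change. Probes of 1 gene are numbered from the brightest. In the Cnga3 double knockout 4 probes are filled (Hk1, Hk2, Pfkm and Pfkp), and in the Cngb3 double knockout 2 (Slc2a1 and Got1).

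Across all 54 kept probes, the Cnga3 double knockout had 4 calls, 7.41% against 8.04% of all kept probes. Of these, 3 were higher (5.56% against 4.61%) and 1 was lower (1.85% against 3.43%). In the Cngb3 double knockout 2 were called, 3.7% against 2.68%, with 1 higher (1.85% against 1.44%) and 1 lower (1.85% against 1.25%). Between the double knockouts limma called 0 of the 54, against 0.405% of all kept probes (0.184% higher and 0.222% lower), and 6 had an unadjusted p under 0.05 (11.1% against 14.5%). These shares are near the background of each comparison. At an unadjusted p, 16 probes passed in the Cnga3 (29.6% against 25.8%) and 10 in the Cngb3 double knockout (18.5% against 20.4%). The median difference of the 54 probes was 0.02 and 0.03, against -0.01 and 0.00 over all kept probes, and the median absolute difference was 0.20 and 0.17 against 0.23 and 0.20.

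Values did not overlap the control for 4 probes in the Cnga3 double knockout (Hk2, Pgk1, Idh3g and Suclg1), 7.41% against 6.74% of all kept probes. In the Cngb3 double knockout they did not overlap for 8 (Tpi1, Gapdh, Eno2, Pdha1, Idh3g, Suclg1, Fh1 and Ckmt1), 14.8% against 6.69%, although limma called none of these 8. Hk2 and Idh2 did not overlap between the double knockouts, 3.7% against 4.93%. The 95% interval lay within 2-fold in both directions for 45 probes in the Cnga3 and 52 in the Cngb3 double knockout, and for 50 between them. Of the 9 genes with more than 1 kept probe, 5, 3 and 6 had probes of 1 sign in the Cnga3, the Cngb3 and the Cnga3 minus Cngb3 comparison.

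**Figure D4:**
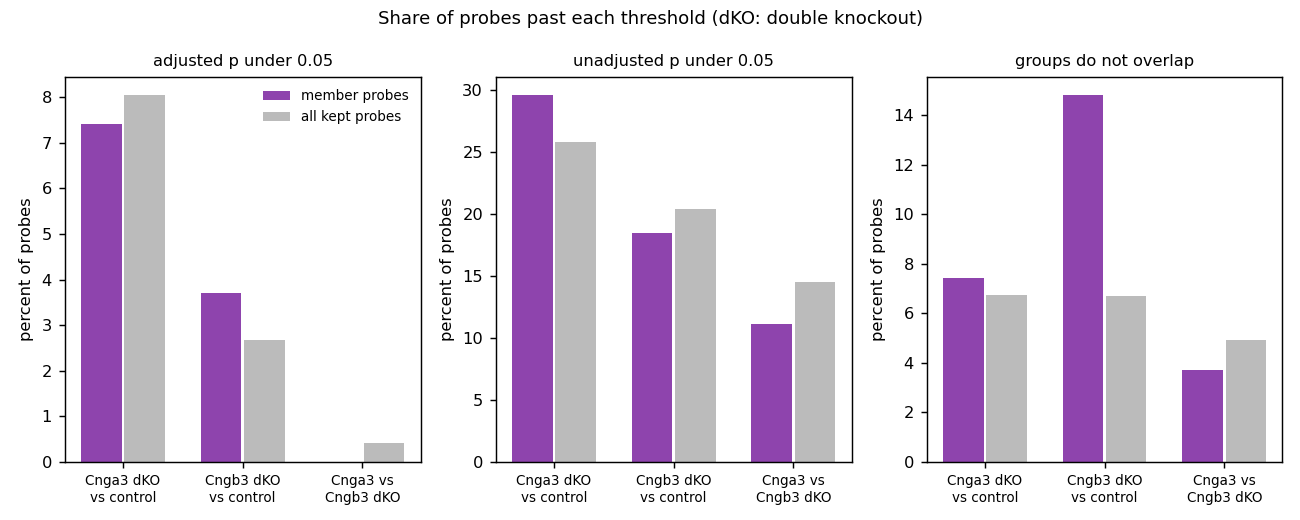
Percent of the 54 member probes and of all 13077 kept probes with an adjusted p under 0.05, with an unadjusted p under 0.05 and with groups that do not overlap, in each comparison. Member shares lie near those of all kept probes, apart from groups that do not overlap in the Cngb3 double knockout, at 14.8% against 6.69%.

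Genes around the pathway were read from 7 lists of 90 genes, of which 53 had a kept probe (the brightest per gene). In the Cnga3 double knockout 5 were higher and 2 lower (13.2% of the 53, against 8.04% of all kept probes), and in the Cngb3 double knockout 2 were higher and 2 lower (7.55% against 2.68%). The lists were chosen with earlier results of these data known and count 1 probe per gene. These shares therefore cannot show an excess of calls among them. Limma called 0 between the double knockouts (0.405% of all kept probes), where 7 had an unadjusted p under 0.05 (14.5% of all kept probes). In the alternatives run this count of 0 was 0 to 7. Among 10 measured regulators of glucose use, Hif1a, Egln1 and Prkaa2 were higher and Txnip lower in the Cnga3 double knockout, and Hif1a was higher and Txnip lower in the Cngb3 double knockout. All kept probes were called higher for 4.61% and lower for 3.43% in the Cnga3, and for 1.44% and 1.25% in the Cngb3 double knockout.

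Hif1a encodes the oxygen-sensitive subunit of the hypoxia-inducible factor, which drives glycolytic genes. It read 8.11, 7.96, 7.03, 8.36 and 7.56 in the control, 8.76, 9.01, 8.97, 9.20 and 9.06 in the Cnga3 and 9.02, 8.53, 8.74, 8.80 and 8.25 in the Cngb3 double knockout. The Cnga3 double knockout did not overlap the control, and replicate 5 of the Cngb3 double knockout did. Hif1a rose by 1.20 (SE 0.211, 2.29-fold, adjusted p = 0.00415) and 0.86 (SE 0.211, adjusted p = 0.0373, limma). The Cnga3 call held without each single array, and the Cngb3 call was lost in 7 of 10, without control replicates 2, 3 or 5 or Cngb3 double knockout replicates 1 to 4 (adjusted p of up to 0.101).

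Txnip encodes a protein that restrains glucose uptake and binds thioredoxin. It read 7.45, 6.45, 6.79, 7.03 and 6.94 in the control, 5.92, 5.93, 6.27, 6.34 and 6.27 in the Cnga3 and 6.24, 6.26, 6.32, 6.18 and 6.50 in the Cngb3 double knockout. Every Cnga3 double knockout array lay below the controls, and replicate 5 of the Cngb3 double knockout lay just above the lowest control. Txnip fell by 0.79 (SE 0.161, adjusted p = 0.0089) and by 0.63 (adjusted p = 0.0451, limma). The Cnga3 call held without each single array. The Cngb3 call ended without control replicates 1, 4 or 5 or any 1 of the 5 double knockout arrays (adjusted p of up to 0.117), without control replicates 1 and 3 together (-0.51, adjusted p = 0.0681) and in 5 further alternatives, and over all 10 alternatives the difference was -0.64 to -0.30. In the Cnga3 double knockout the difference was -0.79 to -0.36 over the alternatives, nearest to 0 in the authors' deposited table, and the call ended with the pigment epithelium covariate (-0.59, adjusted p = 0.0585).

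In the other TCA and anaplerosis list, 2 genes were higher and 1 lower in the Cnga3 double knockout and 1 was higher in the Cngb3 double knockout, of 10 measured. The shares of all kept probes called in these directions were 4.61%, 3.43% and 1.44%. Idh1, the cytosolic NADPH-producing isocitrate dehydrogenase, read 8.45 to 8.71 in the control, 8.96 to 9.15 in the Cnga3 and 8.94 to 9.12 in the Cngb3 double knockout. Neither double knockout overlapped the control, and Idh1 rose by 0.44 (adjusted p = 0.0161) and 0.46 (adjusted p = 0.0229). Leaving out control replicate 2, or any of replicates 1, 3 and 4 of the Cngb3 double knockout, ended the second call (adjusted p of up to 0.068). Me1, the cytosolic malic enzyme, fell by 0.61 in the Cnga3 double knockout (adjusted p = 0.0142), and its second probe fell by 0.51 (adjusted p = 0.0412). The first call ended without control replicates 1 and 3 together (-0.47, adjusted p = 0.0513). Glud1, glutamate dehydrogenase, rose by 0.69 there (adjusted p = 0.0266, and up to 0.064 without control replicate 5 or Cnga3 double knockout replicates 1, 2 or 3), whereas its second probe differed by 0.28.

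Egln1, the prolyl hydroxylase that marks Hif1a protein for degradation, rose by 0.64 in the Cnga3 double knockout (adjusted p = 0.0462), but its other probes differed by 0.36 and 0.01, and the call survived 1 of the 10 fits that left out an array (adjusted p of up to 0.1). Prkaa2, a catalytic subunit of the energy sensor AMPK, rose by 0.55 (adjusted p = 0.0253, and up to 0.0587 without Cnga3 double knockout replicates 2, 3 or 5), a call that also ended without control replicates 1 and 3 together (0.45, adjusted p = 0.0791) and with the pigment epithelium covariate (0.40, adjusted p = 0.129). Pygm, the muscle-type glycogen phosphorylase, was the 1 called gene of 6 measured in the glycogen list. Of all kept probes 1.25% were called lower in the Cngb3 double knockout. Pygm read 9.68 to 10.84 in the control, 9.15 to 9.64 in the Cngb3 and 9.30 to 10.10 in the Cnga3 double knockout. Only the Cngb3 double knockout lay wholly below the control, where Pygm fell by 0.98 (adjusted p = 0.0169, and 0.0525 without Cngb3 double knockout replicate 1), and the Cnga3 difference was -0.41 (adjusted p = 0.206).

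Limma called 0 genes in the remaining 4 lists in either double knockout, with an unadjusted p under 0.05 for 6 genes in the Cnga3 and 4 in the Cngb3 double knockout. Among all kept probes 8.04% and 2.68% were called, and 25.8% and 20.4% had such an unadjusted p. The gene of lowest p in the list of other glycolysis genes, with 11 of 23 measured, was Adpgk in the Cnga3 double knockout, at -0.43 (adjusted p = 0.0646), and Pgam2 in the Cngb3 double knockout, at 1.57 (adjusted p = 0.103). In the pentose phosphate list, with 5 of 7 measured, Tkt (transketolase) differed by -0.48 in the Cnga3 and 0.30 in the Cngb3 double knockout (adjusted p = 0.0985 and 0.352), and by -0.78 between them (adjusted p = 0.0687). Of 2 measured genes of pyruvate entry, Pdp1, the phosphatase that reactivates pyruvate dehydrogenase, differed by 0.35 and 0.18 (adjusted p = 0.0901 and 0.444). Of 9 measured mitochondrial carrier and creatine genes, Ckmt2 differed by -0.65 and -0.76 (adjusted p = 0.0867 and 0.0862). Both double knockouts were compared with the same 5 controls, so that their values are not independent of each other.

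**Figure D5:**
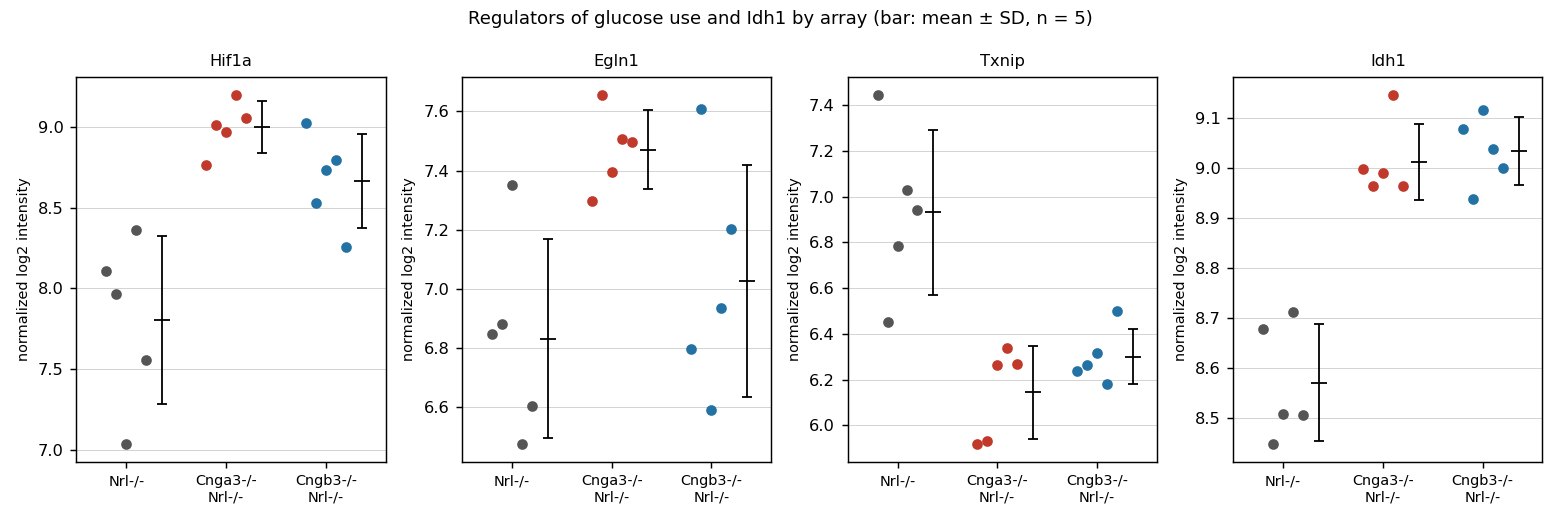
Normalized log2 intensity of Hif1a, Egln1, Txnip and Idh1 on each array (points, in replicate order), with the mean ± SD of 5 mice as bars. Hif1a and Idh1 are higher and Txnip lower in both double knockouts than in the control, whereas Egln1 is higher in the Cnga3 double knockout.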

How the data were processed

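Total RNA from 15 mouse retina samples (5 per group) was measured on Illumina beadchips. Groups were taken from the labels, and the members and gene lists were chosen with earlier results of these data known. The authors deposited, per the file headers, 1 linear intensity and 1 detection p-value for each probe and array. The intensities were not normalized between arrays, judging by their differing medians, the background setting is not stated, and the submitters' processing notes name GenomeStudio. The authors' deposited processed table holds log2 values that equalled log2 of these intensities after quantile normalization with no further background correction, and it was used as an alternative.

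Intensities were normalized with neqc in limma 3.58.1 (R 4.3.3), which corrects background by normexp with negative-control values inferred from the detection p, adds an offset of 16, quantile-normalizes and takes log2. The filter kept 13077 of 25697 probes, those whose detection p lay under 0.01 on 5 or more arrays, and 1 linear model with 3 groups was fitted to them (lmFit and eBayes, two-sided, Benjamini-Hochberg over all kept probes). Probe genes came from the platform annotation, and 1719 probes had no symbol. The Hk2 minus Hk1 difference was tested by exact permutation over arrays, adjusted over 3 comparisons. Levels are not compared between probes. The rule for named genes was every called member, the member of largest change in each role, and the called genes of the pathway lists; other uncalled members whose differences are given were chosen after their values were seen, as were the alternatives run on pathway genes outside the members. The fit was tested on simulated data. The number of arrays, 5 per group, limits the precision, and the sources used here give no slide or scan date, so that batches could not be examined. Alternatives were the authors' table, median centring, another offset, other detection filters, array weights, a replicate block, only the compared groups, the mean of all probes of a gene, a pigment epithelium covariate and arrays left out.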

Additional observations from a re-analysis of the deposited data

Results flagged for a closer look

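Of 162 combinations of a member probe and a group, 10 had 1 array far from the other 4, where chance gives about 1 in 20 groups. Of these, 4 were on Cnga3 double knockout replicate 4, which read 11.44 for Hk2 (others 12.52 to 12.75), 9.60 for Pdha1 (others 10.26 to 10.50), 8.41 for Dlat (the others at most 8.09) and 9.11 for the dimmer Idh3g probe (others 9.57 to 9.72). Control replicate 3 read 10.28 for Pgam1 (others 9.97 to 10.05) and 8.70 for the brightest Mdh1 probe (others 9.29 to 9.45). Control replicate 4 read 14.85 for Ckb (others 15.05 to 15.12). Cngb3 double knockout replicate 3 read 6.58 for Sucla2 (others 5.88 to 6.05) and 15.12 for Ckb (others 14.85 to 14.90), and replicate 2 read 12.77 for Got2 (others 12.88 to 12.91).

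The Hk2 minus Hk1 difference was lower in the Cnga3 than in the Cngb3 double knockout by a test of that difference itself (-1.11, exact permutation adjusted p = 0.0119), with no overlap of the 5 and 5 arrays.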

How the results depend on the processing

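The Hk2 call in the Cnga3 double knockout held in every alternative run (-1.42 to -0.82) and without each single array (-1.04 to -0.72), and that of Hk1 held without each single array (0.65 to 0.91) but ended with only the 2 compared groups in the fit (adjusted p = 0.0668) and with the pigment epithelium covariate. Without 1 array, the count of called members was 2 to 5 in the Cnga3 double knockout, 0 to 3 in the Cngb3 double knockout and 0 between them. The share of all kept probes called in these fits also varied, at 4.21% to 9.40%, 0.994% to 6.33% and 0.145% to 1.38%. The Cnga3 count of 4 was 2 without control replicate 2 or Cnga3 double knockout replicates 1, 2, 3 or 5. The Cngb3 count of 2 was 0 without control replicates 2, 3 or 5 or Cngb3 double knockout replicates 1, 2, 3 or 4. With only the compared groups in the fit the Cnga3 count was 1 and the Cngb3 count 0, and with the pigment epithelium covariate the Cnga3 count was 8 (Slc2a1 and Mdh1 higher, and Hk2, Aldoa, Got1, Idh3a, Idh3g and the brightest Pfkm probe lower). Fits with only the compared groups called 2.47% and 1.76% of all kept probes, and the Cnga3 covariate fit called 15.7%. The Cngb3 count was 1 with median centring, 0 without a filter on dim probes and 4 with array weights. The shares called over all probes of these fits were 1.93%, 1.1% and 8.06%. The count between the double knockouts was 3 with array weights (Hk1, Hk2 and Eno2) and 4 with the covariate (Hk2, Pdha1, Pgam1 and the brightest Pfkm probe). Weights and covariate raised the share of all kept probes called there from 0.405% to 8.95% and 8.27%. The Slc2a1 call in the Cngb3 double knockout also ended with median centring (adjusted p = 0.072) and without the filter (adjusted p = 0.0604). The Hk2 minus Hk1 difference ranged without 1 array from -1.89 to -1.56 (Cnga3 minus control), from -0.78 to -0.44 (Cngb3 minus control) and from -1.22 to -0.96 (Cnga3 minus Cngb3), and the Cngb3 difference was -0.82 without control replicates 1 and 3 (adjusted p = 0.0714). No called result changed direction in the alternatives run. The causes were not tested. Among all kept probes called between the double knockouts, 45.3% were higher, and 31.6% with median centring. Replicate numbers 1 to 5 are shared by the groups, and deviations of same-numbered arrays correlated at -0.107 to 0.280. Replicate 4 correlated best with its own number in each comparison (0.214, 0.280 and 0.140). The labels do not pair the arrays, and such correlations cannot exclude a batch shared by the same numbers. With the replicate block the Cngb3 count was 1, Slc2a1 there had an adjusted p of 0.0536, and Hk1 and Hk2 in the Cnga3 double knockout gave 0.79 and -0.95 (adjusted p = 0.015 and 0.0155). That block fit called 2.96% of all kept probes in the Cngb3 double knockout. A planned Ldha to Ldhb ratio was not run, since no probe carried the symbol Ldhb. The alternatives on pathway genes, chosen after seeing the data, gave 2 to 10 called genes in the Cnga3 and 2 to 5 in the Cngb3 double knockout, and 4 to 8 and 0 to 5 without 1 array. Between the double knockouts the count of 0 became 0 to 7, changed in 8 of 10 alternatives, and 0 to 1 without 1 array. The same alternatives, apart from single arrays left out, called 323 to 2057, 230 to 1054 and 42 to 1170 of all probes in these 3 comparisons. With only the compared groups in the fit, the Cnga3 calls of Glud1, Prkaa2, Egln1, Me1 and Idh1 and the Cngb3 call of Hif1a ended (adjusted p = 0.0896, 0.0589, 0.0654, 0.0548, 0.0761 and 0.0848). In the authors' table, which has no background correction of this kind, dim probes gave smaller differences that still passed in the Cnga3 double knockout, at 0.44 for Pfkm, 0.32 for Pfkp, 0.30 for Glud1, 0.26 for Prkaa2 and 0.34 for Egln1.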
